A study of Mus musculus with 23 samples.

Results

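The comparison set cells labelled Gpr109a-/- (hereafter knockout-labelled) against cells labelled wild type within a single culture condition, unstimulated CD4+ T cells kept with niacin. It took in 5 of the 23 libraries of the series, 2 knockout-labelled (numbers 2 and 3) and 3 wild-type-labelled (numbers 1, 2 and 3), and the libraries were chosen by their labels alone. All 5 came from spleens of mice on the C57BL/6 background. Cells positive for CD45, CD3 and CD4 and negative for CD8 were sorted and kept for 72 h with IL-2 at 30 IU/ml and niacin at 5 mM, with no antibody against CD3 or CD28. IL-2 and niacin were therefore shared by both groups, which differed in the genotype label. They also differed in library number, since no knockout-labelled library of this condition is numbered 1. The labels give neither the age of the mice nor the part of the gene that the deletion removed. They also do not say whether a library stands for a mouse of its own. The other 3 conditions of the series (unstimulated without niacin, and stimulated through CD3 and CD28 without or with niacin) are used below only to place the genotype-label difference.

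Gpr109a is the earlier name of Hcar2, a receptor on the cell surface that binds niacin and the ketone body beta-hydroxybutyrate. It couples to Gi proteins, which restrain adenylyl cyclase and lower cAMP. It is best known from fat cells, where it curbs lipolysis, and from myeloid cells and keratinocytes. Niacin is also taken up as a vitamin and turned into NAD by a route that does not need the receptor and starts with the enzyme Naprt.

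Counts of reads per gene were deposited, and totals were 20604050 to 22797965 per knockout-labelled library and 22129531 to 25948027 per wild-type-labelled library. Mitochondrial genes took 0.744% to 0.809% of counts in knockout-labelled and 0.881% to 0.924% in wild-type-labelled libraries. Of these genes, mt-Atp6, mt-Atp8 and mt-Co2 had 0 counts in all 5 libraries. The sorted cell type was checked by its markers, in CPM (counts scaled by library size with TMM factors). Cd4 had 558 and 504 CPM in knockout-labelled libraries, against 435, 529 and 537 CPM in wild-type-labelled libraries. Cd8a was between 0.0683 and 2.54 CPM in all 5. The 2 listed CD8 T cell markers summed to 17.5 to 26.3 CPM in wild-type-labelled libraries, and both knockout-labelled libraries lay inside this range. Most of that sum came from the listed marker other than Cd8a. Summed B cell markers were 816 and 709 CPM in knockout-labelled libraries, against 732, 902 and 931 CPM in wild-type-labelled ones, almost all of it Ighm. Summed markers were 245 to 402 against 232 to 502 CPM for NK and gamma delta T cells, 4.95 to 13.3 against 4.54 to 7.28 CPM for myeloid cells (S100a8 and S100a9 at 0), 2.01 to 3.33 against 2.34 to 8.37 CPM for erythroid cells and platelets (Hba-a2 and Hbb-bt at 0) and 195 to 228 against 179 to 223 CPM for stromal cells (mostly Pecam1, Kdr at 0). The ranges of the 2 labels overlapped for each of these marker sums. Wild-type-labelled library 1 stood apart in genes of the cell cycle, which is given with the gene lists below. In bulk samples, fewer cells of a type and less RNA per cell cannot be told apart.

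Hcar2 itself went against the labels. It was counted 32 and 28 times in the knockout-labelled libraries, against 0, 0 and 0 times in the wild-type-labelled libraries. These counts are 1.37 and 1.08 CPM in the knockout-labelled libraries. The gene lies on chromosome 5, at chr5:123863570-123865499 on the minus strand of GRCm38. Against a floor of 3 counts over the wild-type-labelled group, the knockout-labelled level was at least 32.4-fold higher. The edgeR quasi-likelihood test gave an adjusted p of 0.196, DESeq2 gave 0.0118, and limma voom gave 0.00011. The counted exon sequence of Hcar2, 1930 bases, fills the whole span of the gene. Which part of it the deletion removed is not stated, so how far these counts check the label is not known. Groups are therefore called by their labels throughout. The same direction was found in the rest of the series, where Hcar2 had 0 to 26 counts in the other 9 knockout-labelled libraries and 0 or 1 count in the other 9 wild-type-labelled libraries. Its neighbour Hcar1, the lactate receptor, had no count in any of the 5 libraries. Ffar2, a receptor for short-chain fatty acids, had 0.128 and 0.463 CPM in knockout-labelled libraries, against 1.36, 0.0769 and 0.0683 CPM in wild-type-labelled libraries, and the groups overlapped.

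**Figure D1:**
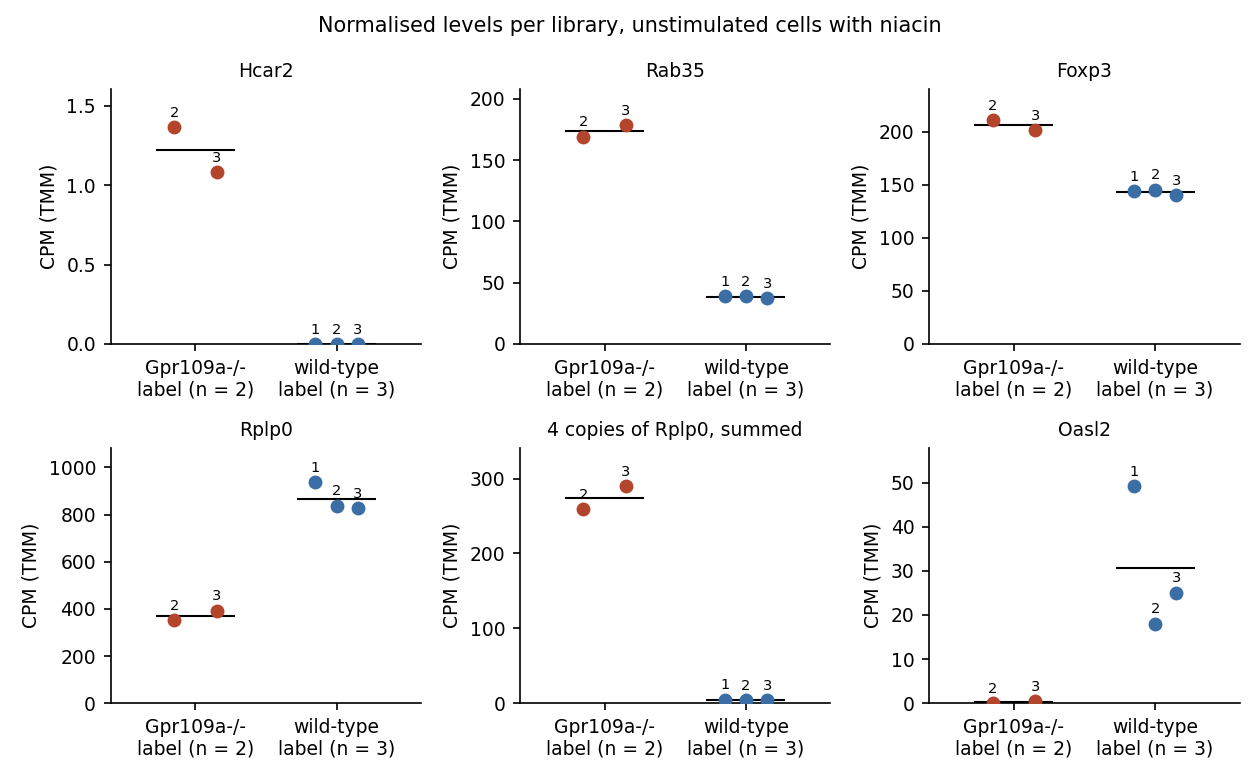
Normalised levels (CPM with TMM factors, axis from 0) of Hcar2, Rab35, Foxp3, Rplp0, the sum of 4 processed copies of Rplp0, and Oasl2, with the 2 knockout-labelled libraries left and the 3 wild-type-labelled libraries right. Points are libraries with their replicate number and lines are group means. The 2 labels do not overlap in any of the 6 panels. Of all genes tested, 7.3% were higher and 8.02% lower in knockout-labelled cells with no overlap.

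Of 16882 genes tested, 6 passed an adjusted p of 0.05 (0.0355%), and 5 of them were higher in knockout-labelled cells (0.0296%) and 1 lower (0.00592%). The 5 that rose were Rab35, a small GTPase of endosomal recycling, and 4 processed copies of the ribosomal protein gene Rplp0, named Gm8730, Gm9625, Gm14165 and Rplp0-ps1. Rab35 lies on chromosome 5 within 10 Mb of Hcar2, as does Rplp0, and the 4 copies lie on other chromosomes. The median log2 fold change over all genes was -0.01. At an unadjusted p under 0.05 there were 166 genes (0.983%), of which 98 were higher (0.58%) and 68 lower (0.403%). That 0.983% lies below the share of 0.05 which this threshold passes when no gene differs and the spread is fitted well. The edgeR test was thus strict here, and a gene that did not pass may still differ. Why it was strict was not tested. The smallest adjusted p among genes that did not pass was 0.111. For the 9756 genes above 5 CPM in a group, the 95% interval of the log2 fold change reached 0.49 to either side at the median, and for 87.8% of them it lay within 1 log2 unit of 0.

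**Figure D2:**
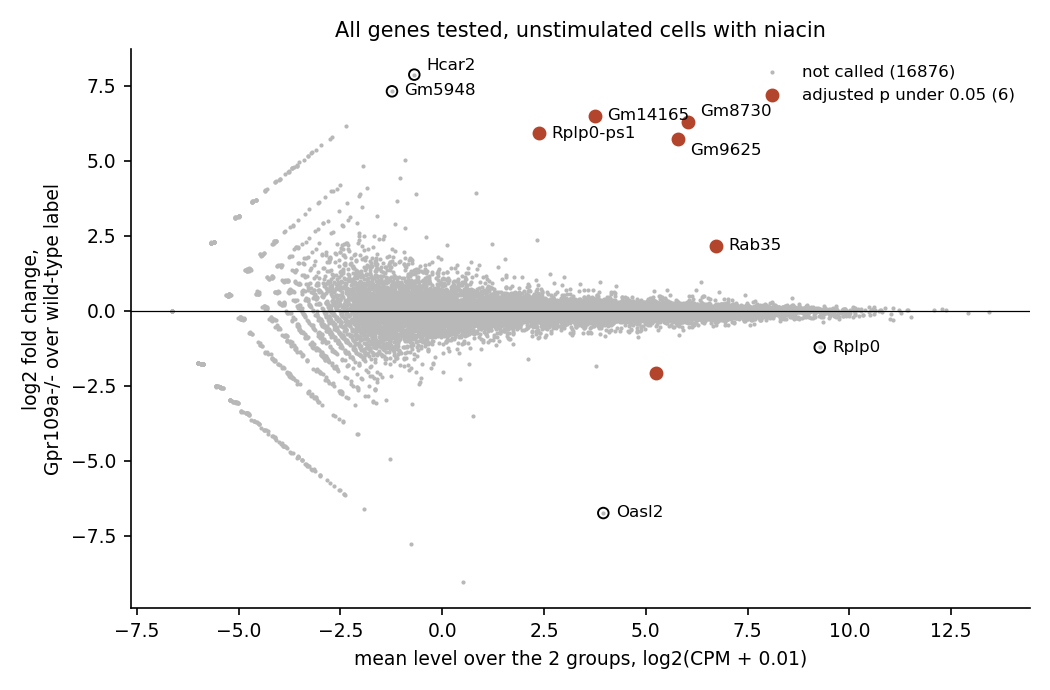
Log2 fold change of knockout-labelled over wild-type-labelled cells against mean level, log2(CPM + 0.01), for the 16882 genes tested. Filled points are the 6 genes past an adjusted p of 0.05, and open circles mark Hcar2, Gm5948, Rplp0 and Oasl2, which did not pass; the fitted values of Hcar2 and Gm5948, at 0 in all wild-type-labelled libraries, depend on the prior count and are no measure of size.

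The 4 called copies are intronless and closely resemble the Rplp0 transcript, which has 7 exons. Over the aligned bases, Gm8730 was 98.7% identical to the Rplp0 transcript, Gm9625 97.5%, Gm14165 97.4% and Rplp0-ps1 95.6%. Little separates reads of the parent gene from reads of its copies: Gm8730 differed from Rplp0 at 12 of 954 aligned bases. The stretch of 60 bases below is not a typical one. Among gapless stretches of the coding sequence within 1 exon, it was picked for the most copies that differ, then for the most differences. It lies in exon 4 of Rplp0, is given 5′ to 3′ along the transcripts of GENCODE vM21 on GRCm38, and stands at chr5:115561168-115561227 (plus strand) for Rplp0, chr8:102865352-102865411 (minus) for Gm8730, chr13:67810633-67810692 (plus) for Gm9625, chr2:152354000-152354059 (plus) for Gm14165 and chr3:93278528-93278587 (plus) for Rplp0-ps1. Capitals in the Rplp0 line mark the 7 positions where at least 1 copy differs, and capitals in the other lines mark the bases at which that copy differs from Rplp0.
Rplp0: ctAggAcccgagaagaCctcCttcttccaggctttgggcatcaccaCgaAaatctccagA
Gm8730: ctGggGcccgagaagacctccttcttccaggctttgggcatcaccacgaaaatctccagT
Gm9625: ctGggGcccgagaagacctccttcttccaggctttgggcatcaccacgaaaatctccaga
Gm14165: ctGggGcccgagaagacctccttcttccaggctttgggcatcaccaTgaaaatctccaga
Rplp0-ps1: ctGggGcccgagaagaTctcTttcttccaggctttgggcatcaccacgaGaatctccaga
At 2 of these positions all 4 copies share a base that Rplp0 lacks, and over the whole alignment there are 7 such positions. Counts of the parent and its copies are therefore uncertain, since reads of near-identical sequences can be assigned to either. Gm14165 also overlaps Gm14164, Gm9625 overlaps 4930525G20Rik, and Rplp0-ps1 lies within Flg.

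Gm8730 had 121 and 137 CPM in knockout-labelled libraries, against 1.86, 1.42 and 1.67 CPM in wild-type-labelled libraries (log2 fold change 6.29 ± 0.44 SE, edgeR adjusted p = 3.0e-08). Gm9625 had 103 and 114 CPM in knockout-labelled libraries, against 2.27, 2.27 and 1.57 CPM in wild-type-labelled libraries (log2 fold change 5.74 ± 0.37 SE, edgeR adjusted p = 1.1e-08). Both copies were near 2 CPM in every wild-type-labelled library and over 100 CPM in every knockout-labelled library. Gm14165 had 26.4 and 26.8 CPM in knockout-labelled libraries, against 0.206, 0.192 and 0.444 CPM in wild-type-labelled libraries (log2 fold change 6.51 ± 0.57 SE, edgeR adjusted p = 1.2e-06). Rplp0-ps1 had 9.13 and 11.3 CPM in knockout-labelled libraries, against 0.248, 0.115 and 0.137 CPM in wild-type-labelled libraries (log2 fold change 5.91 ± 0.53 SE, edgeR adjusted p = 1.5e-06). A more distant copy, Gm5948, 88.0% identical, had 19 and 22 counts in knockout-labelled libraries and 0 counts in each wild-type-labelled library, and did not pass the test (edgeR adjusted p = 0.141), though it did with DESeq2 (adjusted p = 0.0045) and voom (3.0e-04). The aligned copies are 839 to 955 bases long, and their order by CPM in the knockout-labelled libraries was the order of their identity to Rplp0. A further processed pseudogene, Gm13123, of 492 bases, was not aligned to Rplp0 and is not part of this order. It had 25 and 20 counts in knockout-labelled libraries and 1 count in each wild-type-labelled library (edgeR adjusted p = 0.189).

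Rplp0, the stalk protein P0 of the large ribosomal subunit, had 351 and 392 CPM in knockout-labelled libraries, against 936, 837 and 827 CPM in wild-type-labelled libraries. The groups were far apart, but the change did not pass in the edgeR fit over all genes (log2 fold change -1.22 ± 0.27 SE, adjusted p = 0.225). Its call depended on the fit: it passed with only the compared groups in edgeR (adjusted p = 0.0398), with DESeq2 (0.0113), with DESeq2 on the 5 libraries alone (1.2e-17), with voom (0.0032) and with no filter (2.0e-07), and in none of the fits that left out libraries (0.162 to 1). Summed, the 4 copies had 274 ± 21.5 CPM (SD, n = 2) in knockout-labelled and 4.13 ± 0.395 CPM (SD, n = 3) in wild-type-labelled libraries. Parent and copies together had 646 ± 50.4 CPM in knockout-labelled and 871 ± 60.6 CPM in wild-type-labelled libraries, a ratio of 0.741. The copies thus made up 42.49% and 42.51% of the summed counts in the knockout-labelled libraries, against 0.487%, 0.475% and 0.460% in the wild-type-labelled libraries. The share hardly varied within a label. The partners of Rplp0 on the ribosomal stalk lay closer together between the labels. Rplp1 had 295 and 322 CPM in knockout-labelled libraries, against 266, 276 and 293 CPM in wild-type-labelled libraries, and Rplp2 had 147 and 172 CPM in knockout-labelled libraries, against 144, 142 and 151 CPM in wild-type-labelled libraries. Neither passed (edgeR adjusted p = 1 for both).

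Rab35, a GTPase that returns membrane proteins from endosomes to the cell surface, had 169 and 179 CPM in knockout-labelled libraries, against 39.1, 38.9 and 37.5 CPM in wild-type-labelled libraries. It was 4.52-fold higher in knockout-labelled cells (log2 fold change 2.18 ± 0.29 SE, edgeR adjusted p = 5.9e-04), and the spread within each label was small beside the gap. The gene starts at -8.23 Mb from the start of Hcar2, the sign meaning towards the low end of the chromosome, at chr5:115631908-115647736 on the plus strand. None of 6 genes that switch Rab35 on (Dennd1a, Dennd1b, Dennd1c) or off (Tbc1d10a, Tbc1d10b, Tbc1d10c), a list chosen after values were seen, passed the test, and their median log2 fold change was 0.00.

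Genes near Hcar2 were counted within 10 Mb to either side of its start. The window held 261 tested genes, of which 2 passed the adjusted threshold, among them Rab35. At an unadjusted p under 0.05 there were 15 (5.75%), 7 higher and 8 lower, against 151 of the 16621 genes outside the window (0.908%) and 0.452% to 1.53% on the other autosomes and X. Chromosome 5 beyond the window had 0.779%. Leaving out each of the 5 libraries in turn gave 13 to 18 such genes in the window. Of the 15 genes, 14 had the same sign in all 4 culture conditions, against 37 of the 151 outside (24.5%). Of the 15, 8 passed the adjusted threshold in at least 1 other condition, a count not made for the 151 outside. Of all genes, 0.0415% passed unstimulated without niacin, 0.113% stimulated without niacin and 1.44% stimulated with niacin. The last was 243 genes, and 39 to 1024 with a library left out. In steps of 2 Mb from the low end, they were 6 of 54 genes (11.1%) at 10 to 8 Mb before Hcar2, 2 of 15 (13.3%) at 8 to 6 Mb, 0 of 10 at 6 to 4 Mb, 1 of 38 (2.63%) at 4 to 2 Mb and 0 of 57 in the last 2 Mb before it. Beyond Hcar2 they were 5 of 49 (10.2%) within 2 Mb, Hcar2 itself included, 1 of 18 (5.56%) at 4 to 6 Mb, and 0 of the 20 genes at other distances. Whether the steps differ was not tested.

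**Figure D3:**
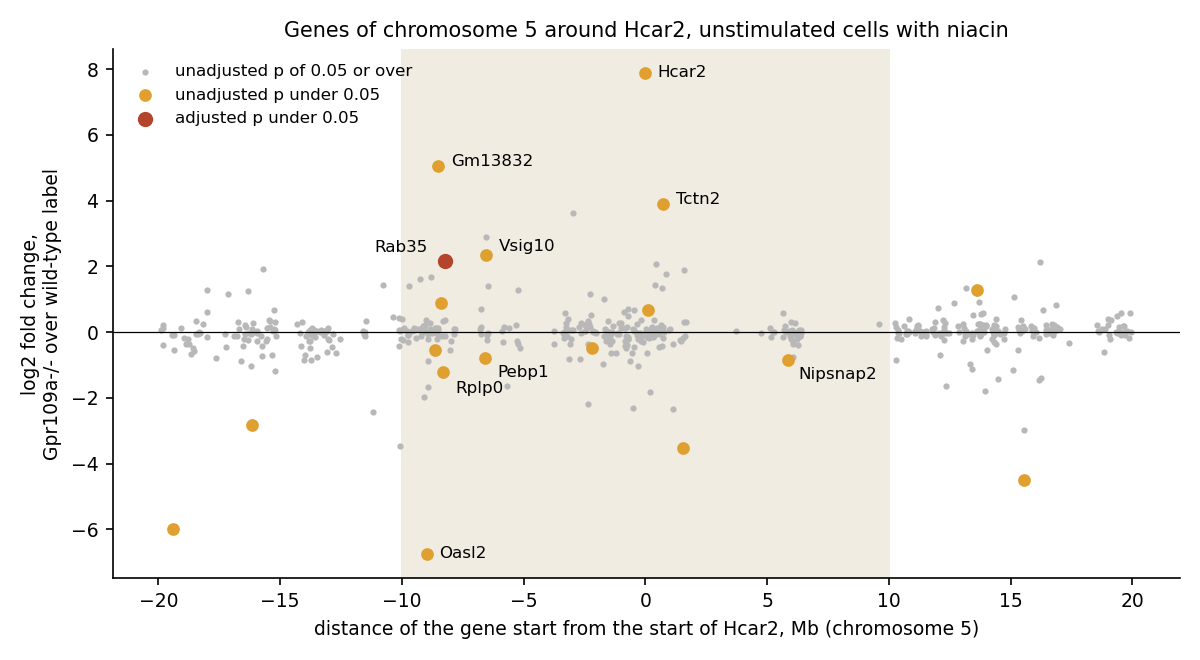
Log2 fold change of knockout-labelled over wild-type-labelled cells for tested genes of chromosome 5, by distance of their start from the start of Hcar2 (Mb). The shaded band is the window of 10 Mb to either side, and most of the genes at an unadjusted p under 0.05 (orange) lie inside it, as does Rab35 (red), past an adjusted p of 0.05.

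The genes of the window that did not pass the adjusted threshold were picked for naming after their values were seen. Oasl2, an interferon-induced protein related to the oligoadenylate synthetases, had 0.0427 and 0.502 CPM in knockout-labelled libraries, against 49.2, 18.1 and 25.1 CPM in wild-type-labelled libraries. As counts these were 1 and 13 against 1192, 470 and 734, so the gap was large, yet edgeR gave an adjusted p of 0.692 and DESeq2 0.00822. The log2 fold change of Oasl2 was -6.75 here and -2.71 in unstimulated cells without niacin. In stimulated cells it was -1.69 without and -1.37 with niacin. Its neighbour Oasl1 had 4.65 and 3.51 CPM in knockout-labelled libraries, against 9.36, 6.34 and 6.76 CPM in wild-type-labelled libraries (edgeR adjusted p = 1). Vsig10, an immunoglobulin-domain protein, had 7.30 and 9.46 CPM in knockout-labelled libraries, against 1.94, 1.88 and 1.09 CPM in wild-type-labelled libraries. Pebp1, the Raf kinase inhibitor protein, had 35.4 and 47.5 CPM in knockout-labelled libraries, against 75.1, 70.3 and 70.7 CPM in wild-type-labelled libraries. Nipsnap2, a mitochondrial protein, had 10.3 and 12.3 CPM in knockout-labelled libraries, against 18.2, 22.2 and 20.7 CPM in wild-type-labelled libraries. None of these 3 genes overlapped between the labels, which also held for 23.8% of the genes tested in the window. Over all genes tested, 7.3% were higher and 8.02% lower with no overlap. None of the 3 genes passed (edgeR adjusted p = 0.924 for Vsig10, 0.344 for Pebp1 and 0.528 for Nipsnap2). All 3 passed with voom (adjusted p = 5.5e-04 for Vsig10, 0.0124 for Pebp1 and 0.0014 for Nipsnap2), and Pebp1 (0.0206) and Nipsnap2 (0.0149) also with DESeq2. Others of the 15 were Tctn2, a protein of the base of the cilium, the long non-coding RNA Gm13832, the mitochondrial sirtuin Sirt4, the endocytic adaptor Hip1r, the RNase P subunit Pop5 and the ubiquitin ligase Brap. Their log2 fold changes ran from -0.54 for Pop5 to 5.04 for Gm13832.

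The genotype-label difference was then set beside the same difference in the other 3 culture conditions, which share no library with it. The labels do not say whether cultures of different conditions came from the same mice. Knockout-labelled libraries of the same number were alike across conditions: the 4 copies of Rplp0 made up 18.5% to 18.8% of parent plus copies in the 3 libraries numbered 1, and 39.7% to 43.1% in those numbered 2 and 3. The fits treat all libraries as independent, so how far agreement between conditions is independent was not tested. Knockout-labelled library 3 of the unstimulated cells without niacin stood apart, with 13205565 counts and 4.69% of them in rRNA-like genes, against 1.48% to 2.84% in the other libraries. Its column name alone lacks the tag jax, and what the tag stands for is not stated. Of the 6 called genes, 6 were also called without niacin in unstimulated cells (where 7 genes passed, 0.0415%), in stimulated cells without niacin (19 genes, 0.113%) and in stimulated cells with niacin (243 genes, 1.44%). The log2 fold change of Rab35 was 2.18 here, 2.19 in unstimulated cells without niacin, 1.96 in stimulated cells without niacin and 1.83 in stimulated cells with niacin. Rplp0 was at -1.22 here, and at -0.67, -0.94 and -1.26 in those conditions, and passed in the last (edgeR adjusted p = 0.011). Nipsnap2 was at -0.85 here and at -1.46 in stimulated cells with niacin, where it passed (edgeR adjusted p = 4.5e-04). The counts of called genes in those conditions moved with single libraries. Unstimulated without niacin, 342 genes passed when knockout-labelled library 2 was left out. Stimulated without niacin, 6 to 8 passed when any of wild-type-labelled libraries 1 and 2 or knockout-labelled libraries 2 and 3 was left out. Stimulated with niacin, 39 to 110 passed when wild-type-labelled library 1 or 2 or any knockout-labelled library was left out, and 1024 without wild-type-labelled library 3. For Rab35, Rplp0 and Nipsnap2, neither of the tests of a difference between conditions that were run (with against without niacin in unstimulated cells, and unstimulated against stimulated cells with niacin) passed, the lowest edgeR adjusted p being 0.433, for Nipsnap2 between unstimulated and stimulated cells.

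**Figure D4:**
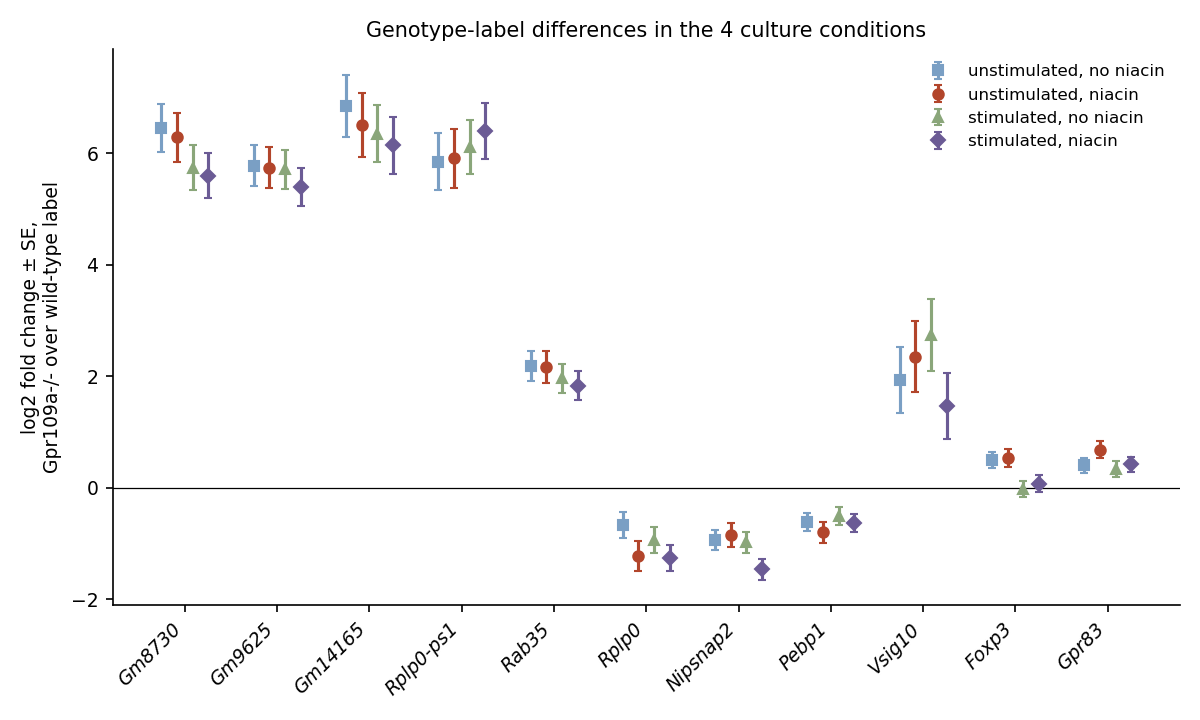
Log2 fold change ± SE of knockout-labelled over wild-type-labelled cells in the 4 culture conditions for the 5 genes called higher, for Rplp0, and for Nipsnap2, Pebp1, Vsig10, Foxp3 and Gpr83, of which the last 5 were chosen after their values were seen. The 4 copies of Rplp0 lie above 5 and Rab35 near 2 in all 4 conditions, and Foxp3 lies near 0.5 in both unstimulated conditions and near 0 in both stimulated ones.

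Most genes called in stimulated cells with niacin were not called here. Of the 243 genes called there, 237 were not called in unstimulated cells with niacin, and 79 of them had the same sign (33.3%) and 158 the opposite sign. Of the 237, 7 had the same sign at an unadjusted p under 0.05 here. Without both wild-type-labelled libraries 1 and 2 of that condition 7 genes passed there, but this leaves 1 wild-type-labelled library, which is assumed to vary like the other groups, and the loss of libraries alone can lower the count. The difference between the genotype-label differences of unstimulated and stimulated cells with niacin was tested gene by gene, and edgeR called 0 genes, with 1850 at an unadjusted p under 0.05 (11%), while DESeq2 called 68 and edgeR 121 without wild-type-labelled library 3 of the stimulated cells with niacin. With niacin against without niacin in unstimulated cells, the same test called 1 gene, the Wnt receptor Fzd7, with 326 at an unadjusted p under 0.05 (1.93%); its counts are low, and the call was lost when any of 10 of the 11 libraries was left out.

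Genes of the receptor's own pathway and of niacin use did not pass. Of 26 genes of Gi signalling and cAMP, 24 were tested and 0 passed; 1 had an unadjusted p under 0.05, Adcy9, an adenylyl cyclase, with 2.05 and 2.90 CPM in knockout-labelled libraries, against 1.11, 1.04 and 1.06 CPM in wild-type-labelled libraries. Gnai2, the main Gi subunit of lymphocytes, had a log2 fold change of 0.05 ± 0.16 (SE). The median of the list was 0.05, against -0.01 over all genes. Of 29 genes of NAD metabolism, 26 were tested, 0 passed and 0 had an unadjusted p under 0.05, with a median of 0.01. Naprt, which turns niacin into its mononucleotide, had 1.62 and 1.51 CPM in knockout-labelled libraries, against 1.49, 0.999 and 1.67 CPM in wild-type-labelled libraries. Nampt, the entry enzyme for nicotinamide, had 61.4 and 59.2 CPM in knockout-labelled libraries, against 84.3, 64.6 and 57.8 CPM in wild-type-labelled libraries.

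Over the 34 gene lists other than the Rplp0 list, 587 distinct genes were tested and edgeR called 0 of them, against 0.0355% of all genes. At an unadjusted p under 0.05 there were 11 higher and 1 lower of the 587, against 0.58% higher and 0.403% lower of all genes. DESeq2 called 3 of the 587, and 18 of all genes tested. The medians of lists with at least 5 tested members ran from -0.38 to 0.50. The genes of regulatory T cells were the list with most of them. Of its 21 members tested, 5 were higher at an unadjusted p under 0.05 (23.8%, against 0.58% of all genes), 19 had a positive log2 fold change, and the median was 0.39. In 9 of the 21 the knockout-labelled libraries were both above all wild-type-labelled libraries (42.9%, against 7.3% of all genes).

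Foxp3, the transcription factor that defines regulatory T cells, had 211 and 202 CPM in knockout-labelled libraries, against 144, 145 and 140 CPM in wild-type-labelled libraries. Its log2 fold change was 0.53 ± 0.16 (SE), and it did not pass (edgeR adjusted p = 1; DESeq2 0.81), but it passed with voom (0.0228) and with DESeq2 on the 5 libraries alone (0.0016). Gpr83, a receptor enriched in regulatory T cells, had 97.9 and 86.3 CPM in knockout-labelled libraries, against 57.0, 58.6 and 56.7 CPM in wild-type-labelled libraries (log2 fold change 0.68 ± 0.15 SE, edgeR adjusted p = 0.269), and it passed with DESeq2 (adjusted p = 0.0052) and voom (0.0036). Tnfrsf4, the costimulatory receptor OX40, had 71.1 and 86.6 CPM in knockout-labelled libraries, against 56.3, 55.8 and 54.6 CPM in wild-type-labelled libraries. These 3 genes were tightly grouped within the wild-type label and did not overlap between labels. Of all genes tested, 7.3% were likewise higher with no overlap. Nrp1, a coreceptor on regulatory T cells of thymic origin, had 92.3 and 124 CPM in knockout-labelled libraries, against 43.8, 46.3 and 79.0 CPM in wild-type-labelled libraries, and Izumo1r, the folate receptor 4, had 97.1 and 115 CPM in knockout-labelled libraries, against 86.8, 74.2 and 72.9 CPM in wild-type-labelled libraries. Of these 2, Nrp1 passed with voom (adjusted p = 0.0104). Other defining genes did not separate the labels. Il2ra had 278 and 268 CPM in knockout-labelled libraries, against 359, 244 and 211 CPM in wild-type-labelled libraries, and Ikzf2 had 41.7 and 41.4 CPM in knockout-labelled libraries, against 39.5, 42.1 and 38.4 CPM in wild-type-labelled libraries. With each library left out in turn, the list's median stayed between 0.19 (without knockout-labelled library 3) and 0.51 (without wild-type-labelled library 1), and 2 members (without knockout-labelled library 3) to 8 members (without wild-type-labelled library 1) had an unadjusted p under 0.05. In the other conditions, Foxp3 had a log2 fold change of 0.51 in unstimulated cells without niacin, -0.02 in stimulated cells without niacin and 0.07 in stimulated cells with niacin. The difference between unstimulated and stimulated cells with niacin was 0.45 ± 0.22 (SE) and did not pass (edgeR adjusted p = 0.462). Whether the share of regulatory T cells differed between the cultures was not tested.

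Checkpoint receptors of activated T cells gave the remaining values of the activation list. Pdcd1, which encodes PD-1, had 20.4 and 28.8 CPM in knockout-labelled libraries, against 13.6, 14.0 and 13.9 CPM in wild-type-labelled libraries, and Lag3 had 0.597 and 0.849 CPM in knockout-labelled libraries, against 0.248, 0.192 and 0.239 CPM in wild-type-labelled libraries. Neither passed (edgeR adjusted p = 1 for both). Of the 30 genes of the list 13 had a positive log2 fold change, with a median of -0.01 like that of all genes. Single libraries moved this list: without wild-type-labelled library 1 the median was 0.27, with 27 of 30 positive and 5 at an unadjusted p under 0.05, and without wild-type-labelled library 3 it was -0.14, with 9 positive. At an unadjusted p under 0.05 there were 3 members over all 5 libraries (10%, against 0.983% of all genes), and 0 without knockout-labelled library 3. Outside these lists, Itgb5, an integrin subunit, had 2.35 and 2.59 CPM in knockout-labelled libraries, against 1.07, 0.538 and 0.786 CPM in wild-type-labelled libraries (edgeR adjusted p = 0.184; DESeq2 0.0082; voom 0.0165). Cpt1a, which carries fatty acids into mitochondria for oxidation, had 128 and 144 CPM in knockout-labelled libraries, against 69.6, 83.2 and 109 CPM in wild-type-labelled libraries (edgeR adjusted p = 0.924; voom 0.0124).

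Several lists with low medians moved with wild-type-labelled library 1. All 35 cell cycle genes tested had a negative log2 fold change, with a median of -0.38 and 0 genes past either threshold. Summed, they had 2761 and 3575 CPM in knockout-labelled libraries, against 5908, 3310 and 2292 CPM in wild-type-labelled libraries, so the knockout-labelled libraries lay inside the range of the wild-type label. Mki67, the proliferation antigen Ki-67, had 92.3 and 111 CPM in knockout-labelled libraries, against 239, 123 and 66.7 CPM in wild-type-labelled libraries. Without wild-type-labelled library 1 the median became 0.16 and 30 of the 35 values were positive. Without wild-type-labelled library 3, the lowest of its group, the median was -0.70 and 12 genes had an unadjusted p under 0.05 (34.3%), when 1.91% of all genes did, against 0.983% over all 5 libraries. T cell cytokines had a median of -0.26, and 0.24 without wild-type-labelled library 1.

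The medians of interferon-regulated genes also moved with that library. Of 36 genes of the type I interferon response tested, 30 were negative with a median of -0.20, and this was -0.03 without wild-type-labelled library 1. Without wild-type-labelled library 3, 4 of them had an unadjusted p under 0.05, all lower (11.1%, against 1.91% of all genes in that setting). Over all 5 libraries the member at an unadjusted p under 0.05 was Oasl2, described above, and Oas2 had 4.74 and 3.75 CPM in knockout-labelled libraries, against 6.44, 9.88 and 6.05 CPM in wild-type-labelled libraries. Genes of the interferon gamma response had a median of -0.24 over 23 genes, and -0.05 without that library. For cholesterol synthesis the median was -0.18 over 25 genes, and -0.01 without it. The mitochondrial genome differed in this respect. All 8 of its genes tested were lower, 6 with no overlap between labels (75%, against 8.02% of all genes), the median was -0.27, and it stayed between -0.30 and -0.21 with each library left out. The list holds 13 genes, and mt-Atp6, mt-Atp8 and mt-Co2 had 0 counts in all 5 libraries, so these values cover only part of it. mt-Nd1, a subunit of complex I, had 523 and 480 CPM in knockout-labelled libraries, against 656, 558 and 577 CPM in wild-type-labelled libraries. None of the 8 had an unadjusted p under 0.05. The mitochondrial share of counts can also vary within 1 label. In wild-type-labelled unstimulated cells without niacin it ran from 0.346% to 0.937%. In wild-type-labelled stimulated cells without niacin it ran only from 0.554% to 0.566%. The 35 nuclear genes of the respiratory chain had a median of 0.01, with 23 positive, and this moved with single libraries, to 0.11 with 34 positive without wild-type-labelled library 1 and to -0.07 with 3 positive without knockout-labelled library 3.

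**Figure D5:**
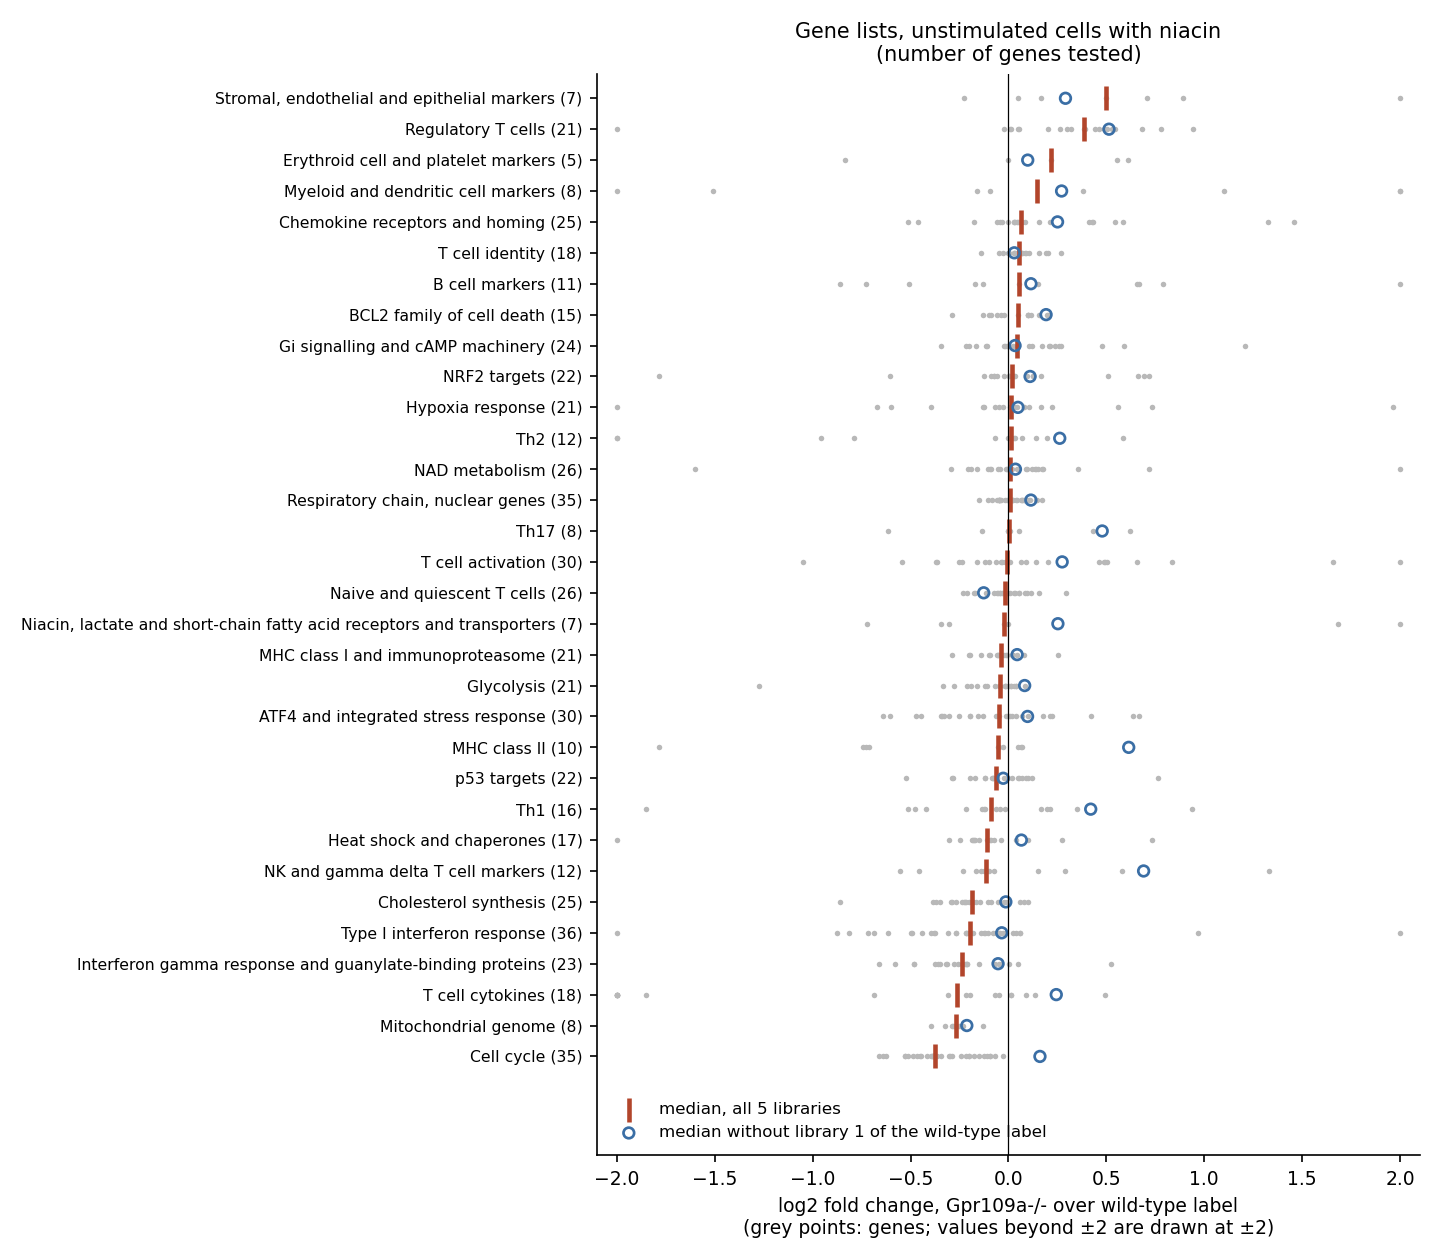
Log2 fold changes of knockout-labelled over wild-type-labelled cells for gene lists with at least 5 tested members, the Rplp0 list left out. Grey points are genes, red bars are list medians over all 5 libraries and open blue circles are medians without wild-type-labelled library 1; the cell cycle median is -0.38 with and 0.16 without it, and that of regulatory T cells 0.39 with and 0.51 without it.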

How the data were processed

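The authors deposited raw read counts per gene with gene lengths in bases (another unit, not used for testing). Reads came from SMART-seq V4 cDNA in 50-base paired-end runs per the labels' protocols. Trimming used Trimmomatic 0.38, alignment STAR 2.7.0e (builds GRCm38.p5 and mm10) and counting featureCounts 1.6.3, per the submitters' processing notes. For strand setting and annotation release: not given in the sources used here. Symbols matched GENCODE vM21 for 53274 of 53379 IDs, and coordinates are those of the deposited table.

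The counts of all 23 libraries were fitted in edgeR 4.0.16 (R 4.3.3, the data.table package, version 1.17.8; quasi-likelihood F test, 8 group means, TMM factors, filterByExpr with a minimum count of 10). Benjamini-Hochberg adjustment ran over the 16882 genes tested, at a threshold of 0.05. The common biological coefficient of variation was 27.4%, with 15 residual degrees of freedom. Levels are CPM with TMM factors; standard errors come from the F statistic. Nothing in the labels ties replicates to separate animals, and p-values reflect only how far these libraries spread. Intervals and floors (3 counts) cover counting error or this spread, no more. The edgeR test of this comparison was tried on simulated counts. Every gene and library was given the same spread there, unlike these data. The trial therefore does not show how strict the test was here. The alternative fits and the tests between conditions were not tried on simulated counts.

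Named genes are Hcar2, Hcar1, Ffar2, called genes at 5 CPM or more whose groups do not overlap (up to 12 per direction), called genes within 10 Mb of Hcar2, the Rplp0 list, and up to 3 called members of each other list; all others were chosen after their values were seen. Of the called genes, 1 is not reported here and is left out of the plot of chromosome 5. The comparison and the 35 gene lists were chosen with earlier results of these data known. Alternatives were RLE factors, DESeq2 1.42.0, no filter, a replicate block, limma 3.58.1 voom with quality weights, only the compared groups, and leaving out libraries.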

Additional observations from a re-analysis of the deposited data

Results flagged for a closer look

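Fzd7, a Wnt receptor, met the rule for a genotype-label difference that differs between conditions. Its difference with niacin minus that without niacin in unstimulated cells was 10.54 on the log2 scale (edgeR adjusted p = 0.0444). Fzd7 had 2 and 24 counts in knockout-labelled libraries with niacin, against 1, 0 and 1 count in wild-type-labelled libraries with niacin. Without niacin it had 0 counts in each of the 3 knockout-labelled libraries, against 16, 7 and 8 counts in wild-type-labelled libraries. With niacin the higher level rests on knockout-labelled library 3 alone, and all of these counts are low. The fitted size depends on the prior count because 1 of the 4 groups is at 0. The replicate block, limma voom and a fit of only the compared groups called no gene in this test, and the call was lost when any of the 11 libraries other than knockout-labelled library 2 with niacin was left out (adjusted p 0.0766 to 1.0, and 4.2e-04 without that library).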

How the results depend on the processing

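All 6 calls held with RLE factors, DESeq2, no filter, the replicate block, voom and only the compared groups. They also held with any of the 3 compared wild-type-labelled libraries left out, or knockout-labelled library 3 of unstimulated cells without niacin. Each of the 2 compared knockout-labelled libraries was left out as well. Other libraries of the series were not left out singly for this comparison. With a library left out, the log2 fold change of Rab35 stayed between 2.14 and 2.22. Without either compared knockout-labelled library that group is 1 library, which is assumed to vary like the other groups. Counts of called genes did not hold. Genes called higher numbered 5, against 12 with DESeq2, 13 with no filter, 23 with voom and 10 with DESeq2 on the 5 libraries alone (added after seeing the data); with a library left out they numbered 5 to 7. Genes called lower numbered 1, against 6, 10, 8 and 6 under these settings, 2 with only the compared groups, and 1 with any compared wild-type-labelled library left out. Calls within 10 Mb of Hcar2 numbered 2, against 9, 8, 13 and 9, and 1 within 5 Mb. Members of the lists other than the Rplp0 list numbered 0, against 3, 5, 6 and 4. Hcar2 passed under the same 4 settings, at log2 fold changes of 7.46, 7.90, 6.03 and 7.46.

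In the test with against without niacin, 1 gene became 85 with no filter and 0 with the block, voom or only the compared groups, and 0 to 1 with a library left out. In the test of unstimulated against stimulated cells with niacin, 0 became 68 with DESeq2, 261 with no filter, 2105 with voom, and 0 to 121 with a library left out. Of the other conditions, 7 genes unstimulated without niacin became 22 with DESeq2, 673 with no filter and 6 to 342 with a library left out. The 19 stimulated without niacin became 102, 208, 169 with voom, and 6 to 20. The 243 stimulated with niacin became 1122, 1138, 3403 with voom, 434 with only the compared groups, and 39 to 1024. Leaving out both wild-type-labelled libraries 1 and 2 of stimulated cells with niacin, these last counts were 9 and 7, and that of the test with against without niacin was 0; the lone wild-type-labelled library left there is assumed to vary like the other groups. The cause was not tested.

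Ffar2, at -0.72, changed sign to 0.17 with the block, 1.28 with voom and 1.97 without wild-type-labelled library 1 (range with a library left out -1.91 to 1.97). Hcar1 took -0.54 with the block and 0.11 with voom.

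The replicate block called 6 genes, the same as without it. Same-numbered libraries had correlated deviations of 0.104 (number 2) and -0.180 (number 3). With 2 knockout-labelled libraries their deviations mirror each other, so this check settles little, and the samples are taken to share only a number. At 2 against 3 libraries, differences under about 0.49 on the log2 scale lay within the interval of a typical gene above 5 CPM.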

Other observations

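Among knockout-labelled libraries of the other conditions, those numbered 1 differed from those numbered 2 and 3 in more than the share of the Rplp0 copies. Rab35 had 115, 118 and 133 CPM in the libraries numbered 1, and 169 to 226 CPM in the others, apart from 266 CPM in library 3 of unstimulated cells without niacin, the library with the fewest counts. In unstimulated knockout-labelled cells without niacin, Oasl2 had 43.8 CPM in library 1, and 0.390 and 0 CPM in libraries 2 and 3. The unstimulated knockout-labelled group with niacin holds numbers 2 and 3 only, so its values for Rplp0, its copies, Rab35 and Oasl2 are set beside wild-type-labelled libraries without a knockout-labelled library numbered 1.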
